A study of Mus musculus with 10 samples.

Results

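Macrophage and monocyte genes were followed through RNA sequencing of mouse skeletal cells that were prepared as chondrocytes and osteoblasts. The set was a fixed list of 31 genes, and a gene was counted as measured where a row of the expression tables carried exactly its name. This was the case for 29 of the 31 in both tables, out of 22583 distinct names in the chondrocyte table and 22645 in the osteoblast table. Spi1 was present under its older symbol Sfpi1 and Cd74 only in a row shared with the microRNA gene Mir5107. Both are given beside the others and enter no count of the 29. Emr1 is the older symbol of Adgre1, the gene of a macrophage surface antigen widely used for sorting.

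The 10 libraries fall into 4 groups. Rib chondrocytes came from ICR mice at postnatal day 1 that carried a Col2a1-ECFP transgene (Col2+ sort, 3 libraries) or a Col10a1-mCherry transgene (Col10+ sort, 3 libraries), and were sorted for that fluorescence. The table gives 1 value per sort, so no chondrocyte difference has an error or a test. Calvarial osteoblasts came from C57BL/6 embryos at E17.5 with the genotype Runx2_cHet_KO or Runx2_cHom_KO (2 libraries each, 1 value per library). They were obtained by enzyme digestion of frontal bone and rostral parietal bone, for which the labels state no sort. The labels name neither the Cre driver of the conditional alleles nor whether the libraries of a genotype came from separate embryos, so the spread between them may be technical. Values are FPKM, fragments scaled by transcript length and by sequencing depth, and total depth is unknown because neither table holds counts.

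Macrophages are phagocytes that mature from blood monocytes or from precursors seeded in the embryo, and bone holds both resident macrophages and the related osteoclasts. The transcription factor PU.1, encoded by Spi1, and its partner Irf8 set up the lineage, and the receptor Csf1r keeps it alive. The listed genes serve engulfment and digestion: complement C1q tags targets, Fc and scavenger receptors bind them, ITAM adaptors such as Tyrobp pass the signal on, and lysosomal proteases degrade the cargo. Several of them, among them Lyz2, Tyrobp, Fcer1g, Coro1a, Cybb and Ptprc, are also used by neutrophils or other white blood cells.

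Promoters are shown first, as sequence background. Their part in the library differences described below was not tested. RefSeq windows of build GRCm38.p6, from 250 bases before to 50 bases after the annotated start, were used for 24 of the 31 genes (30 windows). A filter by chromosome was applied to these windows but not to the windows of all genes. No window was used for C1qa, Tyrobp, Emr1, Cd14, Spi1, Cd74 and Lst1. The windows were searched on both strands for GAGGAA, which holds the GGAA core bound by PU.1 and other ETS factors. It was found in 16 of the 30 windows (53.3%), from 15 genes, against 28.3% of all 32851 windows. The overlapping windows of Fcgr3 hold the same GAGGAA. The longer GAGGAAGT, which contains it, was in 3 of the 30 (10.0%, against 3.2% of all), those of C1qc, Ctss and Cd53. Windows are printed for C1qb and C1qc, which are neighbours on the chromosome, for Mrc1 with 3 matches, for Ctss with 2, and for Lyz2 with none. Each is given 5′ to 3′ on the gene's strand, with GAGGAA or its reverse complement TTCCTC in capitals. A match describes letters only, and no binding was measured.
The C1qb window lies at chr4:136886151-136886450 (minus strand), the C1qc window at chr4:136892865-136893164 (minus strand) and the Mrc1 window at chr2:14229164-14229463 (plus strand). The Ctss window lies at chr3:95526536-95526835 (plus strand) and the Lyz2 window at chr10:117282223-117282522 (minus strand).
C1qb: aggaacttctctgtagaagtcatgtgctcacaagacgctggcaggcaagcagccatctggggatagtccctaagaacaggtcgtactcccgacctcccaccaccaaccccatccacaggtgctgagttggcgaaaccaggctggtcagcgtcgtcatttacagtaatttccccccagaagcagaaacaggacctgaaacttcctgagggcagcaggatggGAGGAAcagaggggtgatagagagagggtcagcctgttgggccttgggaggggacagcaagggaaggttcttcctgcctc
C1qc: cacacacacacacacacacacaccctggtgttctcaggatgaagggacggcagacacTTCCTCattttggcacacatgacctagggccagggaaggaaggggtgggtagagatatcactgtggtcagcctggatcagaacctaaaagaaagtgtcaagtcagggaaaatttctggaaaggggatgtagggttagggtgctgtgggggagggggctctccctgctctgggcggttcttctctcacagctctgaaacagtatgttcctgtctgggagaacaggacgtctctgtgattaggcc
Mrc1: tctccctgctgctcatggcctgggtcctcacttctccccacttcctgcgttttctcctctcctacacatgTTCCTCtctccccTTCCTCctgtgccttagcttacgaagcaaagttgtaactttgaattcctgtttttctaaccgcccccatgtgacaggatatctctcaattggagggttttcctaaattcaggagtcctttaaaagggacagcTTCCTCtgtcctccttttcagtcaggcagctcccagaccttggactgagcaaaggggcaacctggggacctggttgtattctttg
Ctss: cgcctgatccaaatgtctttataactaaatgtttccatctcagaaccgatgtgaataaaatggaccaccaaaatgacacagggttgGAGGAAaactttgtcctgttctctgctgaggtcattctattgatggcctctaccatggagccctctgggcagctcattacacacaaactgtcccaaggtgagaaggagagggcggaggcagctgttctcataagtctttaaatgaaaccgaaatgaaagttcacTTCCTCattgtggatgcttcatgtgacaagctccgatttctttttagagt
Lyz2: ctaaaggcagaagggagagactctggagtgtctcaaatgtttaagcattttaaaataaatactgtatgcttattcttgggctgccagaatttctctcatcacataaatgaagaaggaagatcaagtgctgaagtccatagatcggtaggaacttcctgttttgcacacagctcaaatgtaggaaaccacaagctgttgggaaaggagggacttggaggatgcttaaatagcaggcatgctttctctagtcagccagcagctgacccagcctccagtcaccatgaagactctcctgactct

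Among the osteoblast libraries, the genes separated 1 library from the other 3 rather than one genotype from the other. All 29 measured genes were highest in Runx2_cHet_KO library 1, while 25.4% of the 11909 genes tested were highest there. Their summed level was 688 FPKM in that library and 114 FPKM in Runx2_cHet_KO library 2, and 130 and 159 FPKM in Runx2_cHom_KO libraries 1 and 2. These sums are 0.128%, 0.0202%, 0.0231% and 0.0282% of all FPKM in the respective library. For 26 of the 29 genes the level was at least 2 times that of the highest other library. This held for 22 of the 25 of them that were tested, and for 1.17% of all genes tested. The genes were chosen with earlier results of these data known, so these contrasts are description only. In bulk RNA fewer cells of a type and less RNA per cell cannot be told apart.

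**Figure D1:**
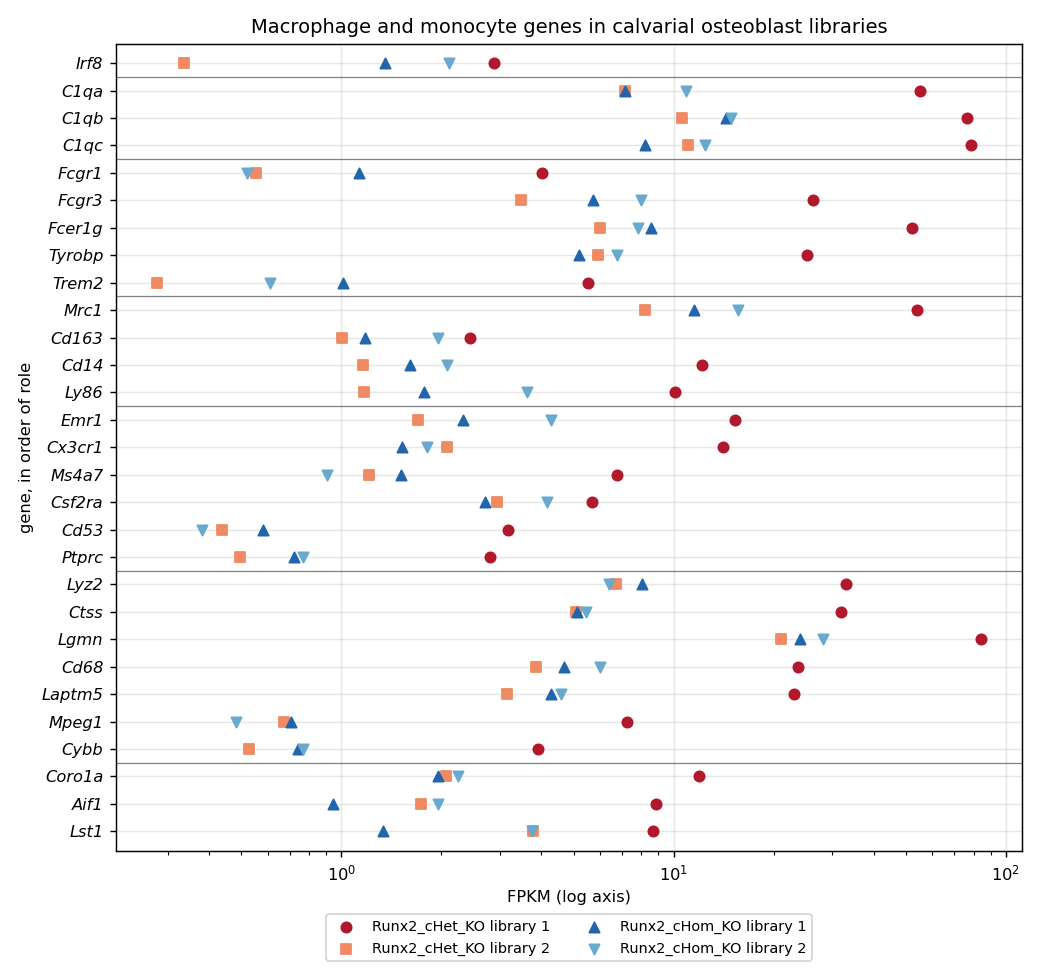
FPKM (log axis) of the 29 measured genes in each of the 4 osteoblast libraries, 1 point per library, with grey lines between role groups. The red circles of Runx2_cHet_KO library 1 lie to the right of the other 3 libraries for all 29 genes.

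Both lineage factors were highest in Runx2_cHet_KO library 1 and differed in the order of the other libraries. Irf8, an interferon regulatory factor of monocyte development, was at 2.89 and 0.336 FPKM in Runx2_cHet_KO libraries 1 and 2 and at 1.35 and 2.104 FPKM in Runx2_cHom_KO libraries 1 and 2, the order used in all quadruplets below. It was the gene with the widest separation of Runx2_cHet_KO library 2 from both Runx2_cHom_KO libraries, whose mean was 5.14 times higher. The row Sfpi1, the older name of the PU.1 gene, was at 13.03, 2.43, 2.17 and 3.66 FPKM. Its lowest library was Runx2_cHom_KO library 1, whereas that of Irf8 was Runx2_cHet_KO library 2.

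Complement C1q genes were among the most abundant of the set. C1q is the recognition unit of the classical complement pathway, made from 3 chains and secreted mainly by macrophages, and the genes C1qa, C1qb and C1qc follow each other on chromosome 4. C1qa was at 55.2, 7.12, 7.15 and 10.9 FPKM, C1qb at 76.2, 10.6, 14.4 and 14.8 FPKM, and C1qc at 78.3, 11.1, 8.18 and 12.4 FPKM. All 3 were between 7.08 and 7.74 times higher in Runx2_cHet_KO library 1 than in library 2, so the chains kept nearly the same proportion to each other in that genotype. The ratio of C1qc to C1qb was 1.03 and 1.04 in the Runx2_cHet_KO libraries and 0.568 and 0.838 in the Runx2_cHom_KO libraries.

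Fc receptors and their signalling adaptors gave the steepest single difference. Trem2, a lipid-sensing receptor that signals through Tyrobp, was at 5.53, 0.279, 1.01 and 0.611 FPKM, 19.8 times higher in the first Runx2_cHet_KO library than in the second. The second value is low, and how many fragments stand behind it is unknown. Fcer1g, the shared gamma chain of Fc receptors, was at 52.1, 5.99, 8.57 and 7.80 FPKM, and Tyrobp, the ITAM adaptor also called DAP12, at 25.2, 5.94, 5.19 and 6.74 FPKM. Fcgr3, a low-affinity receptor for IgG, was at 26.2, 3.47, 5.74 and 7.997 FPKM, and Fcgr1, the high-affinity receptor, at 4.01, 0.554, 1.13 and 0.519 FPKM. The 3 lower libraries overlapped in no fixed order: Fcgr1 and Trem2 were higher in Runx2_cHom_KO library 1 than in library 2, and Fcgr3 and Tyrobp the other way round.

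Scavenger and pattern receptors held both a strong and a weak case. Mrc1, the mannose receptor of tissue macrophages, was at 53.9, 8.22, 11.5 and 15.6 FPKM, and Cd14, which presents bacterial lipopolysaccharide to Toll-like receptor 4, at 12.2, 1.16, 1.61 and 2.08 FPKM. Ly86, a secreted partner of a Toll-like receptor homologue, was at 10.1, 1.17, 1.77 and 3.63 FPKM. For these 3 genes Runx2_cHet_KO library 2 was lowest and both Runx2_cHom_KO libraries lay between it and library 1. Cd163, the haemoglobin scavenger receptor, was at 2.43, 1.01, 1.18 and 1.95 FPKM. Its highest and second highest libraries were only 1.25 times apart.

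Among the other surface proteins, Emr1 was at 15.3, 1.70, 2.32 and 4.27 FPKM, and Cx3cr1, the fractalkine receptor, at 14.1, 2.08, 1.53 and 1.81 FPKM. Ms4a7, a tetraspanning protein of macrophages, was at 6.75, 1.21, 1.52 and 0.904 FPKM. In each case both Runx2_cHom_KO libraries lay far closer to Runx2_cHet_KO library 2 than to library 1. Ptprc, which encodes the leukocyte phosphatase CD45, was at 2.81, 0.496, 0.719 and 0.768 FPKM, and the tetraspanin gene Cd53 at 3.18, 0.436, 0.582 and 0.382 FPKM. Csf2ra, a chain of the GM-CSF receptor, showed the smallest ratio between the Runx2_cHet_KO libraries, 1.94, with 5.70, 2.93, 2.70 and 4.15 FPKM.

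Lysosomal genes supplied the highest level of the set. Lgmn, the asparaginyl endopeptidase, was at 84.0, 21.1, 24.0 and 28.2 FPKM, 3.98 times higher in Runx2_cHet_KO library 1 than in library 2, and was the highest of the 29 genes in all 4 libraries. The protease gene Ctss, whose promoter is shown above, was at 31.8, 5.08, 5.11 and 5.45 FPKM, so the 3 lower libraries were nearly equal. Lyz2, which encodes lysozyme M, was at 33.0, 6.73, 8.03 and 6.38 FPKM. Its close copy Lyz1 was at 0.342 FPKM in Runx2_cHet_KO library 1 and listed at 0 in the others, and reads the copies share make the split uncertain. Cd68, a lysosomal membrane glycoprotein, was at 23.7, 3.84, 4.69 and 6.01 FPKM, and Laptm5, a lysosomal protein of blood cells, at 23.0, 3.15, 4.28 and 4.57 FPKM. Mpeg1, which encodes the pore-forming perforin-2, was at 7.25, 0.673, 0.704 and 0.483 FPKM, 10.3 times above the next library. Cybb, the catalytic subunit of the phagocyte oxidase, was at 3.92, 0.528, 0.742 and 0.768 FPKM. The row shared by Cd74, the invariant chain of MHC class II, and Mir5107 differed less, with 3.72, 2.76, 2.56 and 1.31 FPKM.

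The remaining genes are linked to the cytoskeleton or to signalling in white blood cells. Coro1a, an actin-binding coronin, was at 11.9, 2.06, 1.96 and 2.24 FPKM, and Aif1, the calcium-binding protein known as IBA1, at 8.86, 1.74, 0.943 and 1.95 FPKM. Lst1, a leukocyte transmembrane protein, was at 8.66, 3.77, 1.34 and 3.74 FPKM. It was the only one of the 29 genes at least 1 apart on the log2(FPKM + 1) scale between the Runx2_cHom_KO libraries.

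The difference inside a genotype was set beside that of all genes. On the log2(FPKM + 1) scale 27 of the 29 genes were at least 1 higher in Runx2_cHet_KO library 1 than in library 2, against 2.23% of the genes tested, and 0 were at least 1 lower, against 0.831%. The exceptions were Cd163 and Csf2ra. The median difference was 2.29 for the 29 genes and -0.03 for all genes tested. Between the Runx2_cHom_KO libraries 0 of the 29 were at least 1 higher in library 1 (0.605% of genes tested) and 1 was at least 1 lower (0.487%), with medians of -0.23 and 0.03. Each of these differences sets 1 library against 1 and has no test. The genes tested had at least 1 FPKM in at least 2 of the 4 libraries, which 25 of the 29 met. Cd53, Ptprc, Mpeg1 and Cybb passed 1 FPKM in Runx2_cHet_KO library 1 alone.

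Most of the 29 genes kept a similar profile while their overall level moved. After division of each gene by the geometric mean of the 29 genes in the same library (13.8, 2.18, 2.65 and 3.10 FPKM), 20 of the 29 differed by no more than 2-fold between the highest and lowest library. The steadiest were Cd68, C1qb, Laptm5 and Cybb, with spreads of 1.13-fold, 1.15-fold, 1.16-fold and 1.18-fold. The widest were Irf8, Cd163, Lst1 and Mpeg1, with spreads of 4.41-fold, 3.56-fold, 3.43-fold and 3.38-fold. The rank order of the 29 levels in Runx2_cHet_KO library 1 had a Spearman rho of 0.92, 0.91 and 0.88 with Runx2_cHet_KO library 2 and Runx2_cHom_KO libraries 1 and 2. These correlations are across genes of 4 libraries made with the same kit, and genes are not independent replicates. Neither the 2-fold count nor the correlations were computed for all genes or for another set. They therefore do not show a profile particular to these genes.

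The genotype comparison asked whether the genes differed between Runx2_cHom_KO and Runx2_cHet_KO osteoblasts. In limma on log2(FPKM + 1) with Benjamini-Hochberg adjustment, 0 of the 25 genes tested were called, against 3.69% of all genes tested (2.3% higher and 1.39% lower), and 0 of the 25 had an unadjusted p under 0.05, against 26.8%. A call needed a change of 1 or more on the log2 scale with an adjusted p below 0.05. Their adjusted p lay between 0.253 and 0.939. C1qc had the largest log2 change, -1.48 with a standard error of 1.18 (limma adjusted p = 0.525), from 44.7 ± 47.5 to 10.3 ± 3.01 FPKM (SD, n = 2 each). Lst1 had the lowest adjusted p, 0.253, at a log2 change of -1.03 with a standard error of 0.48. The genotypes did not overlap, with Runx2_cHom_KO lower, for 2 of the 29 genes, Cx3cr1 and Lst1, against 31.3% of genes tested, and with Runx2_cHom_KO higher for 0, against 26.7%. With the libraries centred on their median ratio the first count was 1.

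**Figure D2:**
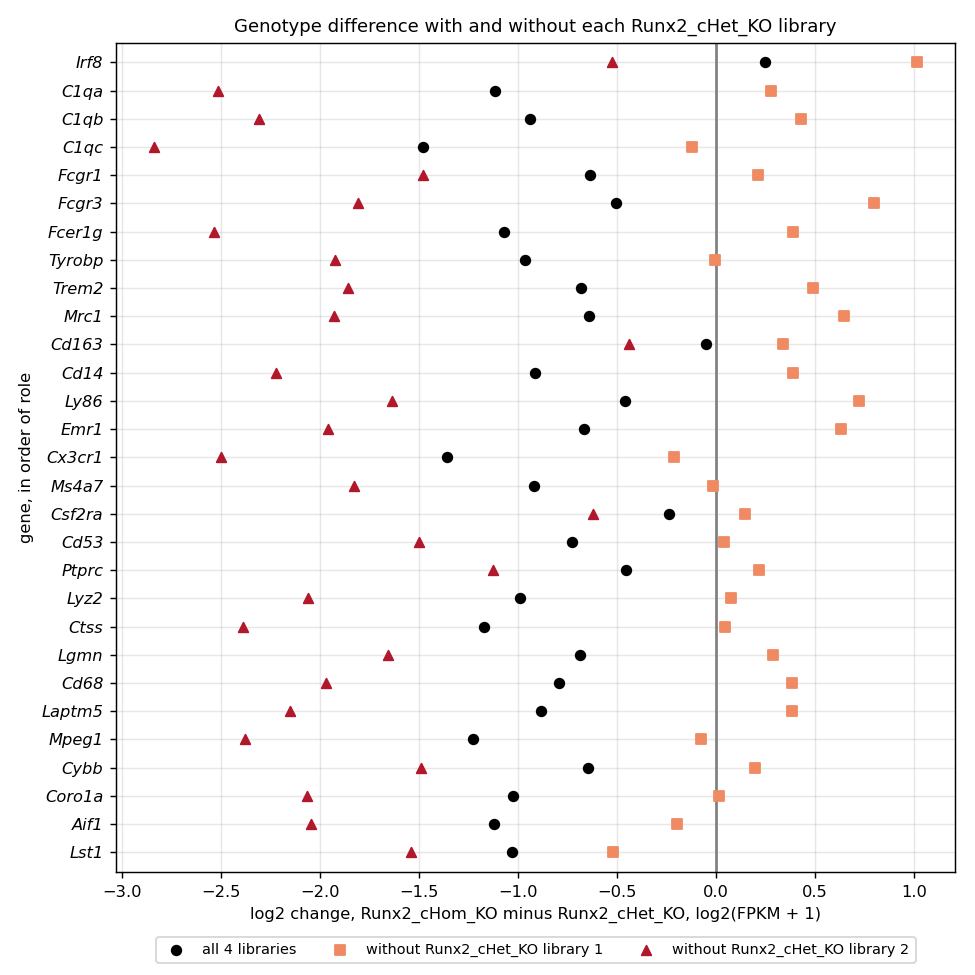
Log2 change of each of the 29 genes, Runx2_cHom_KO minus Runx2_cHet_KO, with all 4 libraries (black circles), without Runx2_cHet_KO library 1 (orange squares) and without Runx2_cHet_KO library 2 (red triangles). All 29 red triangles lie left of 0, while 22 of the 29 orange squares lie right of it.

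The direction of the genotype difference depended on which Runx2_cHet_KO library was used. With all 4 libraries 28 of the 29 log2 changes were negative, with a median of -0.88 against -0.03 over all genes tested. Without Runx2_cHet_KO library 1 the median was 0.22, 22 of the 29 were positive, and limma called 0 of 23 tested, with a lowest adjusted p of 0.0904. In that fit 3.42% of all genes were called higher and 1.4% lower, and an unadjusted p under 0.05 was found for 4 of the 23 and for 27.5% of all genes. Without Runx2_cHet_KO library 2 the median was -1.93, and 21 of 25 were called lower, with log2 changes from -2.84 to -1.48 and limma adjusted p from 0.00227 to 0.043. Of all genes in that fit 2.32% were called lower and 2.98% higher, and 28.8% had an unadjusted p under 0.05. The 4 not called were Irf8, Cd163, Csf2ra and Lst1. In each of these fits the lone Runx2_cHet_KO library is assumed to vary like the Runx2_cHom_KO pair. Set against Runx2_cHet_KO library 2 alone, both Runx2_cHom_KO libraries were higher for 17 of the 29 genes (35.9% of genes tested) and lower for 2 (45.2%), together 19 (81%). The median ratio of the Runx2_cHom_KO mean to that library was 1.37.

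Other genes of the lineage, from a list of 29, were called in neither direction (0 of 15 tested, against 3.69% of all genes tested). On the log2 scale 13 of 29 were at least 1 higher in Runx2_cHet_KO library 1 than in library 2 (2.23% of genes tested) and 0 lower (0.831%). The most abundant were Pf4, a platelet and macrophage chemokine, at 99.4, 14.8, 28.2 and 29.9 FPKM, and the transcription factor gene Maf at 50.7, 38.9, 69.9 and 68.4 FPKM. Csf1r, the receptor that keeps the lineage alive, was chosen after its values were seen. It was at 36.6, 4.83, 6.84 and 9.79 FPKM, a ratio of 7.58 between the Runx2_cHet_KO libraries. Pf4 and Csf1r were thus highest in Runx2_cHet_KO library 1, like the 29 genes, and Maf was not. Csf1, the ligand of that receptor, was at 13.5, 15.9, 20.2 and 17.1 FPKM, and Il34, the alternative ligand, at 1.02, 1.44, 2.03 and 0.991 FPKM. Neither ligand was called.

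Partners of the listed genes were followed as 3 lists. The shares of all genes tested were again 2.23% at least 1 higher, 0.831% at least 1 lower and 3.69% called. Of 5 phagocyte oxidase subunits, 4 were at least 1 higher on the log2 scale in Runx2_cHet_KO library 1 than in library 2 and 0 lower, and limma called 0 of 4 tested. Cyba was at 54.6, 35.2, 33.7 and 29.6 FPKM and Ncf1 at 6.69, 1.65, 0.94 and 1.21 FPKM. Of 8 ITAM signalling genes 5 were at least 1 higher and 0 lower, with 0 of 5 tested called. Fyb, an adaptor, was at 10.4, 1.59, 4.31 and 4.06 FPKM. Some members of low level, chosen after their values were seen, had ratios as high as those of the 29 genes. Vav1, an exchange factor, was at 3.61 and 0.430 FPKM in Runx2_cHet_KO libraries 1 and 2, a ratio of 8.38. Rac2, a GTPase of the oxidase, was at 2.71 and 0.378 FPKM there, a ratio of 7.17. The ITAM signalling gene Plcg2 was at 2.25 and 2.13 FPKM, a ratio of 1.06. For MHC class II, which presents peptides to T cells, 0 of 6 genes were at least 1 apart and 0 of 3 tested were called. H2-DMb1 was at 1.39, 2.42, 1.91 and 2.25 FPKM and H2-DMa at 1.32, 0.602, 0.984 and 1.22 FPKM. H2-Aa, H2-Ab1, H2-Eb1 and Ciita were under 1 FPKM in both Runx2_cHet_KO libraries and so could not be 1 apart on that scale. Their ratios of library 1 to library 2 in FPKM were 3.75, 1.48, 4.78 and 4.97, from these low values. The list's summed level was between 3.95 and 5.80 FPKM in every library.

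Markers of other cells were followed in the same libraries. Of 12 pan-leukocyte genes 8 were at least 1 higher on the log2 scale in Runx2_cHet_KO library 1 than in library 2, against 2.23% of genes tested. Plek was at 23.4, 5.09, 5.46 and 6.27 FPKM. Arhgdib, the most abundant of them, was at 44.1, 44.0, 35.6 and 30.4 FPKM. Neutrophil genes summed to 4.09, 0.361, 1.37 and 2.79 FPKM over 11 genes, of which 1, 9, 7 and 4 were listed at 0, so their defining markers were near 0. Osteoclast genes summed to 134, 140.0, 175 and 151 FPKM, with 0 of 10 at least 1 apart between the Runx2_cHet_KO libraries. Ctsk made up 89.7, 91.6, 84.1 and 77.7 FPKM of these sums. Atp6v0d2, Dcstamp, Ocstamp, Calcr and Oscar were under 1 FPKM in both Runx2_cHet_KO libraries and so could not be 1 apart. Acp5 was at 5.54, 2.28, 3.15 and 4.86 FPKM, with Runx2_cHet_KO library 1 higher than library 2 by 0.994, just under the limit. Ctsk, Nfatc1, Mmp9 and Itgb3 were lower in that library than in library 2. Of the osteoclast genes, the protease gene Mmp9 rose in Runx2_cHom_KO, from 2.46 and 3.20 to 24.6 and 23.1 FPKM (log2 change 2.70, limma adjusted p = 0.00523).

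Mast cell, erythroid and endothelial genes also differed between Runx2_cHet_KO libraries 1 and 2. In that order 4 of 6, 3 of 4 and 3 of 6 were at least 1 higher on the log2 scale in library 1. Of each list 0 were at least 1 lower. Of 6 chondrocyte markers 3 were at least 1 higher and 1 was at least 1 lower. The shares of all genes tested were 2.23% higher and 0.831% lower. Mast cell genes summed to 45.6, 8.85, 36.1 and 16.4 FPKM over 6 genes (Cma1, a chymase, at 17.6, 2.63, 13.2 and 6.01 FPKM; Tpsb2, a tryptase, at 10.3, 3.36, 11.9 and 5.25 FPKM). They were high in library 1 of both genotypes. Erythroid genes summed to 471, 28.02, 464 and 162 FPKM over the 4 of 8 with a row. The haemoglobin row Beta-s made up 459, 25.8, 454 and 160 FPKM of these sums. Hba-a1, Hba-a2, Hbb-b1 and Hbb-b2 had no row. Endothelial genes summed to 22.4, 6.38, 51.1 and 44.3 FPKM, and Tek, the angiopoietin receptor, rose from 1.46 and 1.35 to 8.64 and 8.48 FPKM (log2 change 1.99, limma adjusted p = 0.00961). B cell genes summed to between 0.0575 and 1.08 FPKM and T and NK cell genes to between 0.0553 and 0.528 FPKM. The labelled cell type was present in all 4 libraries: osteoblast markers summed to between 11782 and 16474 FPKM over 7 genes (2 of 7 called lower in Runx2_cHom_KO, the transcription factor gene Sp7 and the matrix gene Spp1), and chondrocyte markers to between 161 and 487 FPKM over 6. Their part in the library difference of the macrophage genes was not tested.

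**Figure D3:**
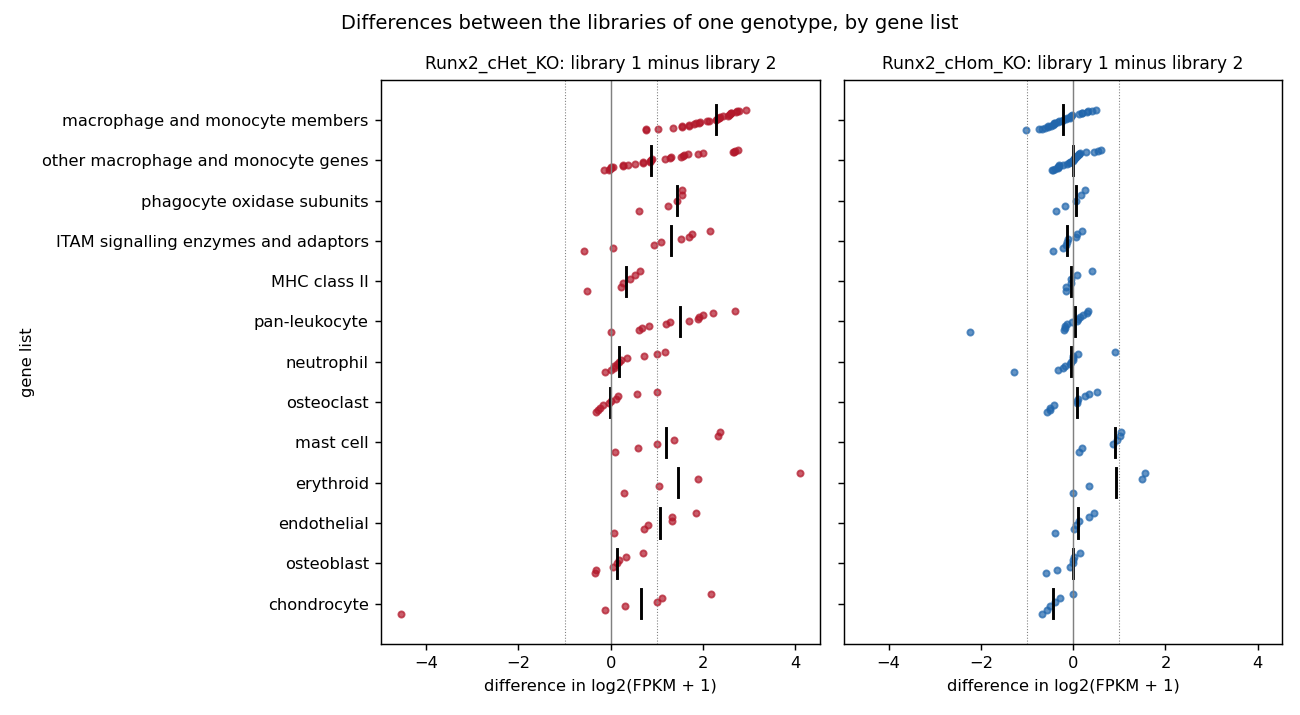
Difference in log2(FPKM + 1) between library 1 and library 2 of Runx2_cHet_KO (left) and of Runx2_cHom_KO (right), 1 point per gene and a black bar at each list's median; dotted lines mark a difference of 1. The 29 macrophage and monocyte genes have a median of 2.29 on the left and -0.23 on the right, while the mast cell and erythroid medians lie above 0 in both panels.

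In the rib sorts the genes separated Col10+ from Col2+ cells. Of the 29 genes, 13 were listed at 0 in the Col2+ sort and 11 more were under 1 FPKM there, while all 29 were above 1 FPKM in the Col10+ sort. Their summed level was 251.4 FPKM in the Col2+ sort, of which Cd14 alone made up 227 FPKM, and 2836 FPKM in the Col10+ sort. By the limit of 1 on the log2(FPKM + 1) scale with at least 5 FPKM in the higher sort, 27 of the 29 were higher in Col10+ cells, against 13.8% of 8354 genes, and 0 were lower, against 14.2%. The median difference was 4.54, against -0.31 over all genes at the same floor.

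The highest levels in the Col10+ sort belonged to the digestive and adaptor genes. Lyz2 was at 0.083 FPKM in Col2+ and 657 FPKM in Col10+ cells (the order used here), and Tyrobp was listed at 0 and at 334 FPKM. Lyz1, the close copy of Lyz2, was listed at 0 and at 11.5 FPKM. Fcer1g was at 0.171 and 157 FPKM and Ctss at 0.021 and 148 FPKM. The 3 C1q chains had a listed value of 0 in the Col2+ sort and reached 122 to 134 FPKM in the Col10+ sort, again close to each other. Mpeg1 was listed at 0 and at 105 FPKM, Laptm5 was at 0.012 and 114 FPKM, and Coro1a at 0.126 and 103 FPKM. In all, 13 of the 29 were at 100 FPKM or more in the Col10+ sort and none of the 13 except Cd14 was above 20 FPKM in the Col2+ sort.

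Lower but still separated were most of the surface receptors. Mrc1, Emr1, Ptprc, Cd53, Ms4a7, Ly86 and Cybb were listed at 0 in Col2+ cells and at 16.3, 22.3, 19.5, 17.4, 15.9, 11.6 and 17.4 FPKM in Col10+ cells. Trem2 was at 0.015 and 24.9 FPKM, Fcgr3 at 0.199 and 48.2 FPKM, Fcgr1 at 0.036 and 9.61 FPKM and Cx3cr1 at 0.003 and 9.70 FPKM. Aif1 was at 0.101 and 23.1 FPKM and Irf8 at 0.209 and 13.7 FPKM. The row Sfpi1 was listed at 0 and at 83.2 FPKM, and the row of Cd74 and Mir5107 was at 0.332 and 44.1 FPKM.

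Some of the genes were measurable in the Col2+ sort as well. Cd14 was at 227 FPKM in Col2+ and 133 FPKM in Col10+ cells, the only one of the 29 that was higher in the Col2+ sort, by 1.70-fold and under the limit. Lgmn was at 15.3 and 265 FPKM (17.3-fold), Csf2ra at 3.81 and 28.8 FPKM (7.56-fold), Cd68 at 3.16 and 100.9 FPKM (31.9-fold) and Lst1 at 1.10 and 59.8 FPKM (54.5-fold). These 5 were the genes at 1 FPKM or more in Col2+ cells. Cd163, listed at 0 and at 2.104 FPKM, stayed under the floor of 5 FPKM.

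**Figure D4:**
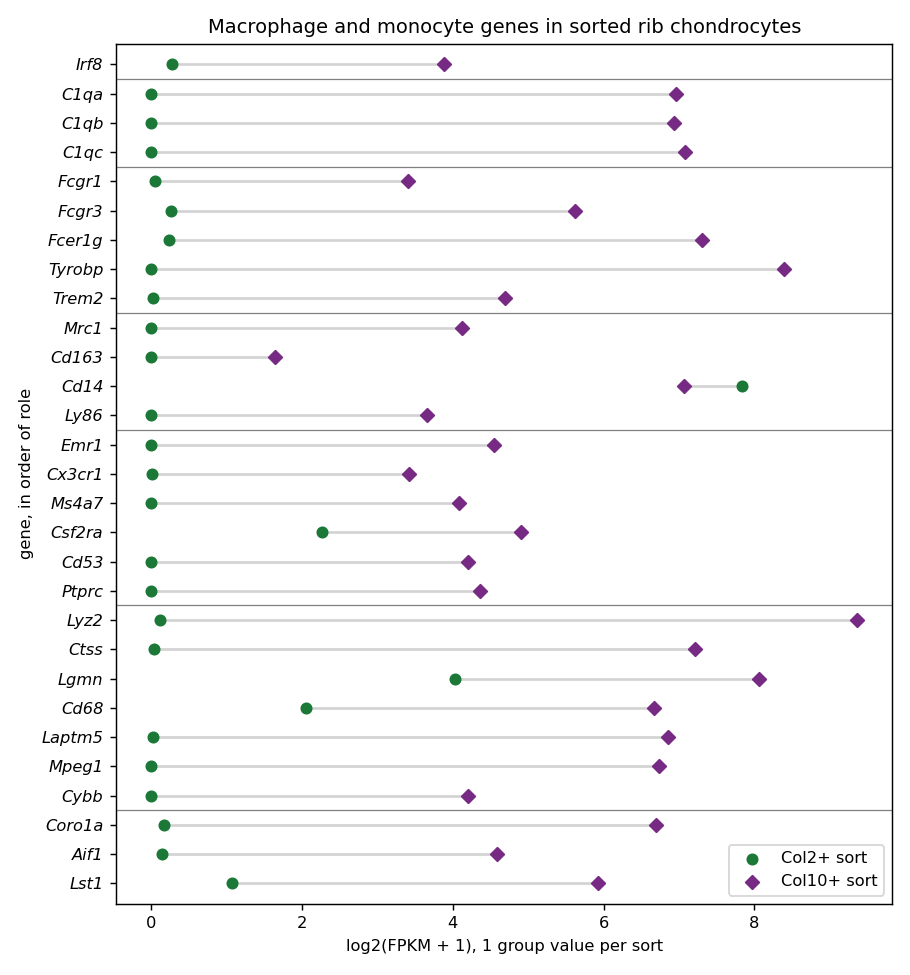
Log2(FPKM + 1) of the 29 measured genes in the Col2+ sort (green circles) and the Col10+ sort (purple diamonds), 1 group value per sort without error. Purple diamonds lie to the right for 28 of the 29 genes, and Cd14 is the exception.

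Several other lists moved with these genes in the Col10+ sort. The counts below use the same limit, by which 13.8% of the 8354 genes at the floor were higher and 14.2% lower. Genes under 5 FPKM in both sorts could not count. Neutrophil genes summed to 0.728 FPKM in Col2+ and 3985 FPKM in Col10+ cells over 11 genes, all 11 higher, with 5 and 0 of them listed at 0, and S100a9 at 0.041 and 1929 FPKM. Pan-leukocyte genes summed to 20.4 and 462 FPKM (11 of 11 higher), phagocyte oxidase subunits to 14.4 and 307 FPKM (5 of 5 higher), ITAM signalling genes to 8.46 and 139 FPKM (8 of 8 higher) and MHC class II genes to 3.23 and 40.9 FPKM (4 of 5 higher). Of the other lineage genes 20 of 29 were higher and 0 lower, with Csf1r at 0.189 and 85.3 FPKM. Osteoclast genes summed to 72.4 and 419 FPKM (5 of 10 higher), erythroid to 1.62 and 712 FPKM (4 of 4) and endothelial to 0.197 and 77.8 FPKM (5 of 6). B cell genes summed to 0.809 and 19.5 FPKM (1 of 7 higher), T and NK cell genes to 0 and 5.03 FPKM (0 of 7), mast cell genes to 0.141 and 14.5 FPKM (0 of 6), and Csf1 was at 1.82 and 11.8 FPKM. The sorts were defined by fluorescence of a chondrocyte reporter. Chondrocyte markers summed to 49672 and 37606 FPKM, so the labelled cell type was present in both. The part of other cells in the Col10+ values was not tested.

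The makeup of the set differed between the Col10+ sort and the osteoblast libraries. The tables were normalised separately and come from different strains, ages and kits, so the comparison is of ranks and of ratios within a column. The Spearman rho of the 29 levels between the Col10+ sort and Runx2_cHet_KO library 1 was 0.70, across genes and with no test. Mrc1 ranked 5 in Runx2_cHet_KO library 1 and 23 in the Col10+ sort, and Cx3cr1 ranked 14 and 27. In the other direction Tyrobp ranked 10 and 2, Mpeg1 20 and 11, Ptprc 28 and 20, and Cd14 15 and 7. The ratio of Lyz2 to C1qa was 0.598, 0.945, 1.12 and 0.585 in the osteoblast libraries and 5.33 in the Col10+ sort. That of C1qa to Csf1r was 1.51, 1.47, 1.05 and 1.11 and then 1.45, and that of Mrc1 to Csf1r was 1.47, 1.70, 1.68 and 1.597 and then 0.192. Within the Col10+ sort neutrophil genes summed to 3985 FPKM beside 2836 FPKM for the 29 genes, and within Runx2_cHet_KO library 1 to 4.09 FPKM beside 688 FPKM. Their part in the Lyz2 and Tyrobp ranks was not tested.

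**Figure D5:**
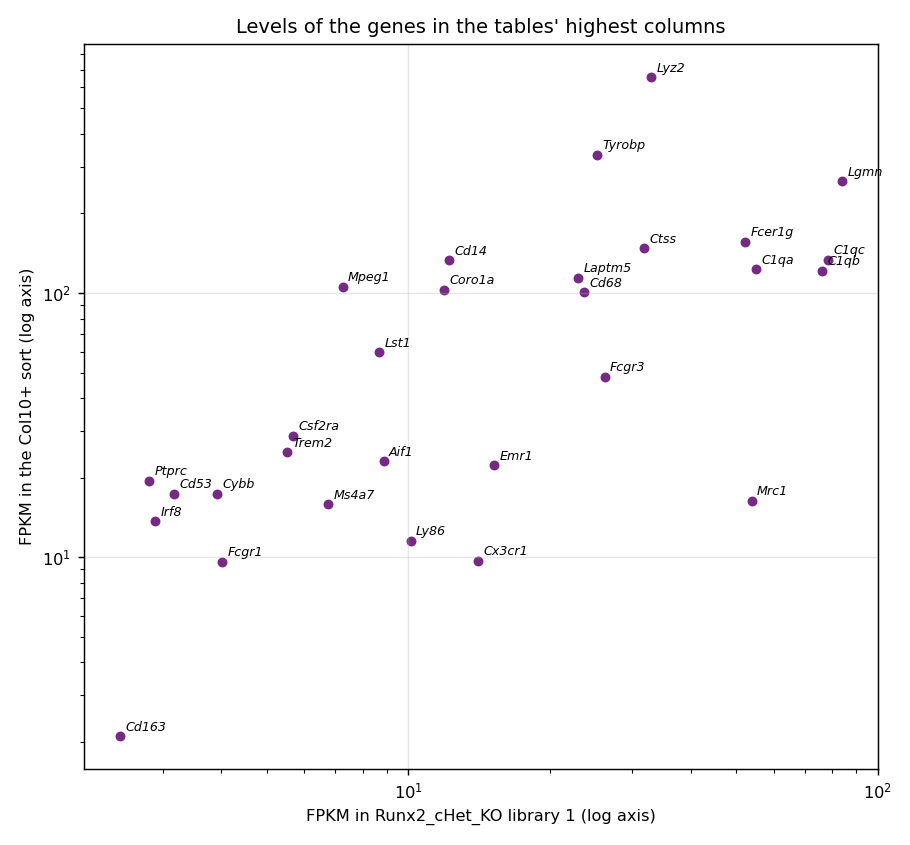
FPKM of the 29 measured genes in Runx2_cHet_KO library 1 (horizontal, log axis) and in the Col10+ sort (vertical, log axis), 1 point per gene. Lyz2 and Tyrobp lie highest in the Col10+ sort at 657 and 334 FPKM, and Mrc1 lies low there for its level in the osteoblast library.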

How the data were processed

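Expression was deposited as FPKM, with 1 column per chondrocyte sort and 1 per osteoblast library, per the file headers. TopHat2 2.1.0, Cufflinks and Cuffdiff 2.2.1 with build mm9 are named, without roles or order, per the submitters' processing notes. Neither how 3 libraries became 1 chondrocyte value nor whether counting used strand is stated there. Per the labels' protocols, input RNA was 100 ng with a TruSeq kit for chondrocytes, against 1.7 ng with the SMARTer Stranded Pico kit for osteoblasts. In the chondrocyte file 1 more value column belongs to no listed sample and was left out. FPKM is relative to all mapped fragments, so abundant rows lower the others. All FPKM of a column summed to 567147 (Col2+) and 712295 (Col10+), and to 536770 at the lowest and 567272 at the highest for osteoblasts.

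Unnamed rows (3444, chondrocytes) and rows named by a date (25 and 26) were dropped, and of several rows for 1 symbol only that of highest mean was kept. limma 3.58.1 in R 4.3.3, tested first on simulated data, was fitted to log2(FPKM + 1) over 4 libraries with trended and robust variances and genotype as the only term. The added 1 makes changes of low genes look smaller. Genes entered when 2 or more libraries reached 1 FPKM. Because a 0 may be a failed estimate, such a gene is described as listed at 0, with no fold. The alternatives were a pseudocount of 0.1, other filters, centring, plain variances, a replicate block, summed rows and leaving out each library. The 31 genes and the lists of related genes and cell markers were chosen with earlier results of these data known. Named genes were all 31, and of each further list up to 4 called genes or the 2 with the highest mean. Csf1r, Lyz1, Vav1, Rac2, Plcg2, H2-Aa, H2-Ab1, H2-Eb1, Ciita and the named osteoclast genes other than Mmp9 were added after their values were seen. One gene that this rule names is not reported here. The lists were other macrophage and monocyte genes, phagocyte oxidase, ITAM signalling, MHC class II, receptor ligands, pan-leukocyte, neutrophil, osteoclast, B cell, T and NK cell, mast cell, erythroid, endothelial, osteoblast and chondrocyte genes.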

Additional observations from a re-analysis of the deposited data

How the results depend on the processing

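Leaving out 1 library mattered most. The number of osteoblast genes called higher ranged from 0 to 399 and lower from 0 to 271, against 274 and 165; both counts near 0 came without Runx2_cHom_KO library 1 (0 and 0) or library 2 (0 and 1). The number of macrophage and monocyte genes called ranged from 0 to 21, against 0, and their median log2 change from -1.93 to 0.22, against -0.88. The median reversed without Runx2_cHet_KO library 1. The log2 change had another sign without some library for 19 of the 25 genes tested. Of these, Fcgr1 and Trem2 did not reach the filter in the fit without Runx2_cHet_KO library 1, where their sign changed. The lowest and highest values of the other 17 were C1qa (-2.51 to 0.28), C1qb (-2.30 to 0.43), Cd14 (-2.22 to 0.39), Cd163 (-0.44 to 0.34), Cd68 (-1.97 to 0.38), Coro1a (-2.06 to 0.0154), Csf2ra (-0.62 to 0.15), Ctss (-2.39 to 0.0448), Emr1 (-1.96 to 0.63), and Fcer1g (-2.53 to 0.39), Fcgr3 (-1.80 to 0.80), Irf8 (-0.52 to 1.02), Laptm5 (-2.15 to 0.38), Lgmn (-1.66 to 0.29), Ly86 (-1.64 to 0.72), Lyz2 (-2.06 to 0.0787), Mrc1 (-1.93 to 0.65). Without a filter 153 genes were called higher and 95 lower, of 18312 tested. With the replicate number as a block 174 were called higher and 119 lower, and 0 of the 25. Same-numbered libraries deviated together with a correlation of -0.05, so the numbers are not known to pair them. With centred libraries 1 of the 29 genes had genotypes that did not overlap, against 2. Against Runx2_cHet_KO library 2 alone, an alternative chosen after seeing the data, 19 of the 29 did not overlap (65.5%), fewer than the 81% of all genes tested. The count of 27 genes higher in Runx2_cHet_KO library 1 than in library 2, and that of 27 higher in Col10+ cells, stayed within 1.5-fold under every alternative run for them (pseudocount, centring and summed rows, and for the latter no floor). Depth is unknown, so no counting interval can be given for values under 1 FPKM.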

Other observations

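Genes outside the lists were also highest in Runx2_cHet_KO library 1. Of the 11909 genes tested, 139 were at least 2 times higher in Runx2_cHet_KO library 1 than in any other osteoblast library. They included 22 of the 25 tested members of the set (88.0% of these, and 15.8% of the 139), 17 genes of the other lists and 100 of neither. The 100 include the row Sfpi1, which is Spi1 under its older symbol. The 10 of these 100 with the largest ratio, chosen after their values were seen, were Bcl2a1b, Il1b, C3ar1, Cd83, Tnf, Fcrls, Hist1h2ad, Hcls1, Lilrb4 and Ptpn6. Il1b, which encodes the inflammatory cytokine interleukin-1 beta, was at 12.4 FPKM there and at 1.05, 0.805 and 1.30 FPKM in Runx2_cHet_KO library 2 and Runx2_cHom_KO libraries 1 and 2. Tnf, the gene of tumour necrosis factor, was at 10.2, 1.02, 1.20 and 1.65 FPKM in the same order of libraries. C3ar1, the receptor for complement fragment C3a, was at 10.7, 1.31, 1.37 and 1.20 FPKM, and Fcrls, an Fc receptor-like gene, at 23.0, 3.34, 3.33 and 3.998 FPKM.

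The same 139 genes also held bone cell genes. Dmp1, a matrix protein of osteocytes, was at 124, 55.9, 0.90 and 2.86 FPKM, and Phex, an osteocyte peptidase, at 7.92, 3.80, 3.23 and 3.43 FPKM. Col10a1, the collagen of hypertrophic cartilage, stood apart in the other direction, at 0.202 FPKM in Runx2_cHet_KO library 1 and at 26.9, 69.7 and 98.7 FPKM in the others. These genes were chosen after their values were seen, and no test was made on them.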
